A study of Mus musculus with 10 samples.

Results

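DNA methylation at 10 mouse genes of the male germ line was taken from reduced representation bisulfite sequencing of whole testis. They are 7 testis copies or relatives of genes used in other tissues (Ldhc, Pgk2, Slc25a31, Pdha2, Rpl10l, Cetn1 and Utp14b) and 3 genes of sperm glycolysis (Gapdhs, Hk1 and Eno4). All CpGs inside each gene and up to 2 kb beyond both ends were used, and a gene counted as measured with at least 3 CpGs. By that rule 8 of the 10 genes were measured, with 462 CpGs of 1407384 in the whole data set, among 17645 measured regions of 21900 protein-coding genes. No CpG of Pgk2 or Cetn1 was covered, so neither gene has a value here. The libraries came from testes of F2 mice, 5 in a group titled control and 5 in a group titled arsenic. The treatment label of the second group reads arsenic-treated. Strain, age, dose and the generation that received arsenic were not stated in the labels. Whether each library is a separate animal is not stated either, and each p-value below therefore reflects variation among libraries, which could be technical.

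Many of these genes serve the same need. The X chromosome is silenced during meiosis in male germ cells, and autosomal copies of X-linked housekeeping genes, several of them made by reverse transcription of the parent gene's messenger RNA, supply the product there. Sperm then rely on glycolysis along the tail, carried out by isozymes made only in germ cells and partly anchored to the fibrous sheath. Promoters of germline genes can be methylated in somatic tissues, while most promoters inside CpG islands are free of methylation in all tissues. Bisulfite sequencing reads a methylated cytosine as C and an unmethylated one as T, and the level given below is the percentage of reads that kept the C.

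Reduced representation sequencing reads fragments cut at CCGG, so the letters around a gene start bear on whether it can be measured. The sequences below show 6 of the genes: the 250 bases before the start, 5′ to 3′ in the direction of transcription, with each CpG that the data cover in capitals (RefSeq, GRCm38.p6). Those of Slc25a31, Rpl10l and Utp14b carry covered CpGs, and those of Pgk2, Pdha2 and Ldhc do not.

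Slc25a31, chr3:40708621-40708870, plus strand: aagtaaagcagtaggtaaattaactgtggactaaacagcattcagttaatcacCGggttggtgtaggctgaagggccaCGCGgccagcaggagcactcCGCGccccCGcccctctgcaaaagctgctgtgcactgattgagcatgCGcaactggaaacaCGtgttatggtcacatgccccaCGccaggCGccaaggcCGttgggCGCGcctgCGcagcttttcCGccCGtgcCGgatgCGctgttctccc
Rpl10l, chr12:66284402-66284651, minus strand: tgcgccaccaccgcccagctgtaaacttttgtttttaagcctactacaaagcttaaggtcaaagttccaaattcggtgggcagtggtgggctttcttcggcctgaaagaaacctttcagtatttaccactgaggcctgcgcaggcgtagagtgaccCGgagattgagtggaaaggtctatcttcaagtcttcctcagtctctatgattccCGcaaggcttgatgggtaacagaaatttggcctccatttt
Utp14b, chr1:78658190-78658439, plus strand: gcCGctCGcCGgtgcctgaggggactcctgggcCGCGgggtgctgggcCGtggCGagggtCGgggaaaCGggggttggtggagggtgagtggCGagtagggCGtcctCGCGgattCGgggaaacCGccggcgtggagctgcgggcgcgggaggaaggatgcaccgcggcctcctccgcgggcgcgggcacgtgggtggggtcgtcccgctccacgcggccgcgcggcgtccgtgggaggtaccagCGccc
Pgk2, chr17:40208610-40208859, minus strand: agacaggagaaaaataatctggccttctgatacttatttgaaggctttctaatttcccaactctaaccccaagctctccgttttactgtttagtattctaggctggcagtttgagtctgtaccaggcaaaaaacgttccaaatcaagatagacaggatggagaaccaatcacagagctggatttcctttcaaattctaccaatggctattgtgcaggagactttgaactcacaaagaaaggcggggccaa
Pdha2, chr3:141212356-141212605, minus strand: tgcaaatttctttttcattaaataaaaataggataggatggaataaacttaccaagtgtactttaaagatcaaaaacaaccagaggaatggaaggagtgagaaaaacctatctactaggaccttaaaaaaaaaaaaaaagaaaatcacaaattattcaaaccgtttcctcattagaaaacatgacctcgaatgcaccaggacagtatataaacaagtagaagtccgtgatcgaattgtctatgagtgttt
Ldhc, chr7:46861013-46861262, plus strand: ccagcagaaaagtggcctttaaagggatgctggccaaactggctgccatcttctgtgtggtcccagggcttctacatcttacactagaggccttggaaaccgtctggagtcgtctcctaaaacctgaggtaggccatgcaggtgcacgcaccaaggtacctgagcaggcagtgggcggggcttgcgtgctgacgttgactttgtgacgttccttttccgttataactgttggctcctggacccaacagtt

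All 18 CpGs before the start of Slc25a31 were covered, 16 of 37 before that of Utp14b and 2 of 8 before that of Rpl10l. Pgk2 has 3 CpGs in its 250 bases, Pdha2 has 4 and Ldhc has 8, and none was covered. The promoter entries of Pgk2, Pdha2, Gapdhs, Ldhc and Eno4, and the outer entry of Hk1, hold no CCGG in 300 bases (250 before the start and 50 after it), whereas those of Slc25a31 and Utp14b hold 2 each and that of Rpl10l holds 1. The internal entry of Hk1 also holds 1 CCGG, with 20 CpGs, and none of them was covered. Among 32851 promoter entries of that length, 52.8% hold CCGG, and a covered CpG was present in 58.0% of those and in 0.909% of the others. The Eno4 entry has 24 CpGs, more than that of Slc25a31 with 22, and was not covered. Letters that match CACGTG, the core bound by E-box factors, stand 93 bases before the start of Slc25a31 and 63 bases before that of Utp14b, as in 7.15% of all entries. The letters GGCGGGAA, which resemble an E2F site, are present on the opposite strand beginning 19 bases after the start of Slc25a31, and on either strand in 2.19% of all entries. The TGACGTCA palindrome of cAMP response elements, present in 1.79% of all entries, was found in none of the members' entries. These are matches of letters on both strands and not measured binding.

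Coverage summed over the cytosines of the table ranged from 69771871 to 100355708 per library, and median coverage per cytosine from 27 to 40 reads. Over the 8 measured gene regions, the summed coverage per library ran from 685 at Pdha2, with 10 CpGs, to 14794 at Hk1, with 237 CpGs. A read that spans several cytosines is counted at each of them, so these sums are not numbers of separate reads. Reads carried no molecular identifiers, so the limits given for zeros, each 3 reads over the reads at a CpG, reflect counting error alone. Control libraries 4 and 5 had the highest mean level over all cytosines, 54.0% and 54.3%, beside 53.2% to 53.8% in the other 8. A value without them is given where it changes sign. As a check of the tissue, 8 of 13 maternally methylated imprinted regions were measured. These are unmethylated in male germ cells and carry methylation on the maternal copy in somatic cells. Their mean level per library was 6.03% to 15.1%, with a control mean of 11.0% ± 3.89 (SD, n = 5) and an arsenic mean of 10.6% ± 0.618 (SD, n = 5), p = 0.778 by a two-sided exact permutation test. The paternally methylated region upstream of H19, on 3 CpGs, stood at 95.2% ± 2.85 (SD, n = 5) and 95.6% ± 2.17 (SD, n = 5), with an exact permutation p = 0.802. In DNA from whole testis, methylation in a share of the cells and partial methylation in every cell cannot be told apart.

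The 8 genes fell into groups by level. Ldhc, Hk1 and Eno4 were nearly fully methylated over the CpGs covered, with library values of 86.4% to 93.5%. Slc25a31, Pdha2 and Rpl10l were partly methylated, with medians over the 10 libraries of 19.3%, 22.2% and 19.5%. Gapdhs had a median of 9.64%, and Utp14b one of 1.95%. The median level over all measured gene regions was 44.4%. Since these values depend on which CpGs the fragments reach, the order describes covered CpGs and not whole genes.

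**Figure D1:**
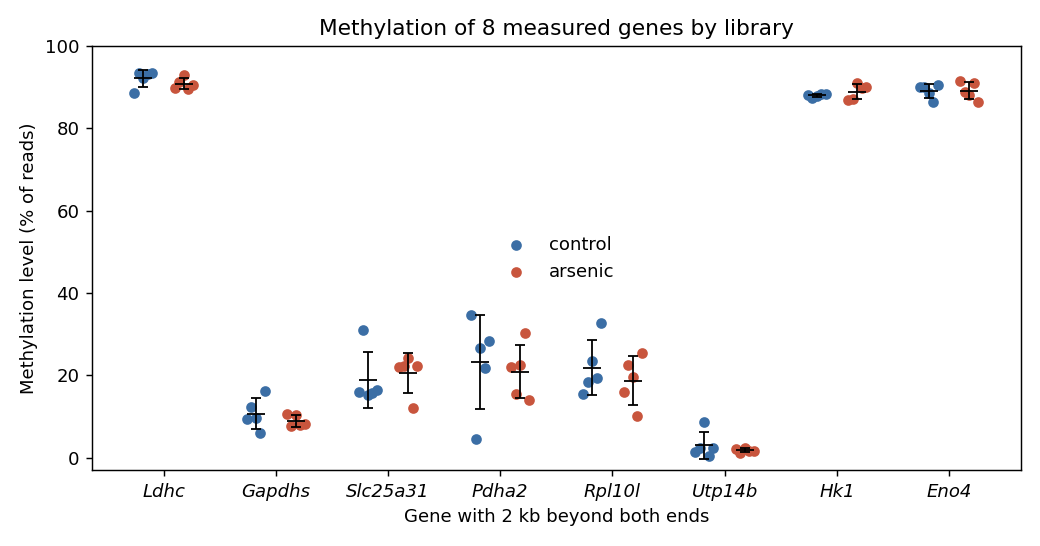
Methylation level (% of reads) of each measured gene with 2 kb beyond both ends, 1 point per library, control in blue and arsenic in red. Black bars give the mean ± SD over 5 libraries. Ldhc, Hk1 and Eno4 lie near 90%, Slc25a31, Pdha2 and Rpl10l spread around 20%, and the groups overlap at each of the 8 genes.

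The comparison of the arsenic with the control group asked whether methylation at these genes differed in the F2 testis. The quasi-binomial model with Benjamini-Hochberg adjustment over all gene regions called 0 of 8 (called: adjusted p under 0.05 and at least 10 percentage points), against 0% of all 17645 regions. Adjusted p at the 8 genes ran from 0.915 to 0.996. None of the 8 had an unadjusted p under 0.05, a level reached by 5.71% of all regions, and in none did the libraries of the groups stop overlapping, which happened in 0.765% of all regions. The arsenic mean was lower at 5 genes and higher at 3, beside 59.9% and 40.1% of all regions, with a median difference of -1.28 percentage points, beside -0.43 over all gene regions. The widest differences in means were -3.15 points at Rpl10l, -2.38 points at Pdha2, -1.79 points at Gapdhs and 1.71 points at Slc25a31, each smaller than the SD of the control libraries there. Without control library 5 the difference shrank to -0.450 points at Rpl10l and to -0.415 points at Gapdhs. A simulation kept the real coverage but gave every gene region the same setting of spread between libraries. In it the model recovered 22 of 100 gene regions changed by 10 points and 88 of 100 changed by 20 points. Recovered means called, so the minimum of 10 points alone removes regions changed by 10 points whose observed difference fell short of it. A change of about 10 points could therefore be missed. The setting was not taken from these genes, where the SD over the 10 libraries ran from 1.39 points at Hk1 to 8.79 points at Pdha2. Recovery at the spread of each gene was not tested.

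Finer units gave the same count of calls. Of 56 tiles of 1 kb with at least 3 CpGs, 0 were called, against 0% of 165978 tiles in all. An unadjusted p under 0.05 was found in 4 of the 56, or 7.14%, beside 5.80% of all tiles. All 4 lay in Hk1 and were higher in arsenic, where 2.46% of all tiles had such a p in that direction. Of the 462 single CpGs, 0 were called, against 0% of all CpGs, and 35, or 7.58%, had an unadjusted p under 0.05, beside 6.85% of all. Of unchanged CpGs in the simulation, 5.79% had such a p, and 50 of 100 CpGs changed by 20 points were recovered. The 35 were 17 lower and 18 higher in arsenic, beside 3.93% and 2.93% of all CpGs. The 5 control and 5 arsenic values did not overlap at 5 of the 462 CpGs and at 0.575% of all CpGs. In 4 of the 5 the arsenic values were lower and in 1 higher, beside 0.329% and 0.246% of all CpGs. No member tile was free of overlap, beside 0.832% of all tiles. Gene start windows, 1 kb on each side of the start, were measured for 4 genes. None was called, against 0% of 13631 windows, and 0 of 4 had an unadjusted p under 0.05, beside 6.51% of all. The libraries of the groups overlapped in all 4, beside 0.954% of windows without overlap.

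Slc25a31, on chr3:40708871-40726094 (plus strand), encodes the ADP/ATP carrier of the testis, which exchanges the nucleotides across the inner mitochondrial membrane in germ cells. Its 46 covered CpGs lie from 197 bp before to 487 bp after the start. The control libraries stood at 16.1%, 30.9%, 15.3%, 15.8% and 16.5% (libraries 1 to 5), and the arsenic libraries at 22.0%, 22.4%, 24.4%, 12.1% and 22.3%. Control library 2 was far above its group and arsenic library 4 far below its own. The means were 18.9% ± 6.73 (SD, n = 5) and 20.6% ± 4.85 (SD, n = 5), with an adjusted p of 0.979 in the quasi-binomial model. Without the 2 kb flanks the difference was -1.62 points, and without control libraries 4 and 5 it was -0.133 points, so its sign changed with these choices. With 1 library left out at a time it ran from 0.781 to 4.71 points.

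Along Slc25a31 the sign of the difference changed from stretch to stretch. All 23 CpGs from 197 bp before to 66 bp after the start, which include each capital CG of the sequence above, were higher in arsenic by 3.42 to 8.43 points. The next 20 CpGs, from 97 to 395 bp after it, were lower by 1.38 to 9.41 points. Of the last 3 CpGs, 2 at 411 to 457 bp were higher, by 4.63 and 10.8 points, and 1 at 487 bp was lower by 1.25 points. The lowest unadjusted p at any of these CpGs was 0.0901, and neighbouring CpGs share reads, so their common sign is not support from separate measurements. The tile that holds the start (24 CpGs) stood at 16.9% ± 8.55 (SD, n = 5) in control libraries and 22.7% ± 6.62 (SD, n = 5) in arsenic libraries, with an adjusted p of 0.915. The next tile (22 CpGs) stood at 22.0% ± 9.20 (SD, n = 5) and 17.8% ± 3.92 (SD, n = 5), with an adjusted p of 0.933.

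Pdha2, on chr3:141210004-141212355 (minus strand), encodes the germ cell form of the E1 alpha subunit of pyruvate dehydrogenase, the enzyme that passes pyruvate into the citric acid cycle. Its 10 covered CpGs lie inside the gene, 809 to 968 bp after the start, and none lies in the sequence printed above. Control libraries 1 to 5 stood at 34.6%, 4.64%, 26.8%, 21.8% and 28.4%, and the arsenic libraries at 22.0%, 15.5%, 22.5%, 30.2% and 14.1%. The lowest and the highest of the 10 libraries were both controls, so the control values enclosed every arsenic value. The means were 23.2% ± 11.4 (SD, n = 5) and 20.9% ± 6.43 (SD, n = 5), with an adjusted p of 0.977. The SD over the 10 libraries, 8.79 points, was the largest of the 8 genes and above the median of 3.05 points over all gene regions. Without control library 1 the difference turned to 0.462 points.

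Rpl10l, on chr12:66283379-66284401 (minus strand), encodes a ribosomal protein that stands in for X-linked Rpl10 during male meiosis. Its 23 covered CpGs lie from 93 bp before to 524 bp after the start. In order, the control libraries read 15.4%, 18.4%, 23.5%, 19.5% and 32.7%, and the arsenic libraries 16.0%, 22.5%, 19.6%, 10.2% and 25.3%. Arsenic library 4 was the lowest and control library 5 the highest, with the other 8 values mixed between the groups. The means were 21.9% ± 6.68 (SD, n = 5) and 18.7% ± 5.90 (SD, n = 5), with an adjusted p of 0.951.

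A level between 10% and 30% was shared by nearly every CpG of these 3 genes. It was found at 45 of 46 CpGs of Slc25a31, 9 of 10 of Pdha2 and 23 of 23 of Rpl10l, and at 7.55% of all CpGs. All 77 CpGs with such a level among the 462 belonged to these 3 genes. Of all measured start windows, 1054, or 7.73%, had a mean level in that range, whereas 81.3% lay under 10%. The SD over the 10 libraries was 5.60, 8.79 and 6.17 points at Slc25a31, Pdha2 and Rpl10l, beside a median of 4.76 points, with quartiles of 3.41 and 6.60, in those 1054 windows. The CpGs of Pdha2 moved together from library to library, with a median Pearson r over all pairs of its CpGs of 0.952 over 10 libraries. The same measure was 0.224 at Slc25a31 and 0.352 at Rpl10l. The covered CpGs of Pdha2 lie in a shorter stretch than those of Slc25a31 and Rpl10l, so the pairs are not at like distances. Nearby CpGs share fragments, and all CpGs of a gene share the libraries.

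**Figure D2:**
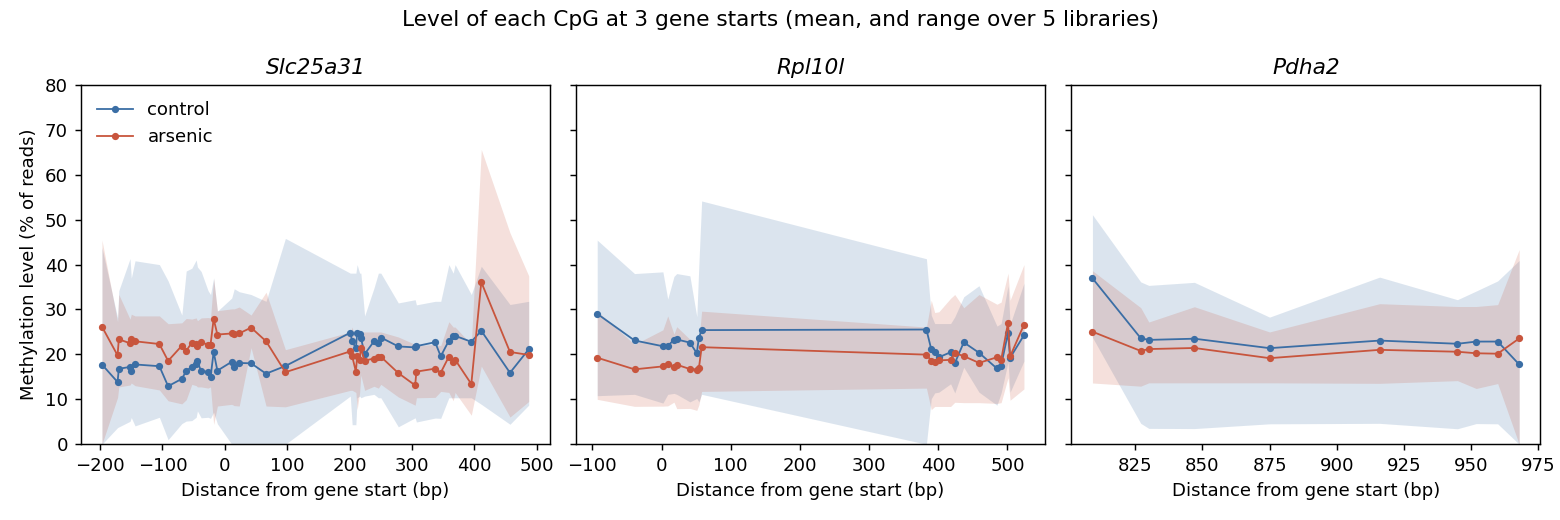
Methylation level (% of reads) of each covered CpG against its distance from the gene start in bp, at Slc25a31, Rpl10l and Pdha2. Lines with points are group means (control blue, arsenic red), and bands reach from the lowest to the highest of the 5 libraries of the group. The group means cross after the start of Slc25a31, and the bands overlap throughout.

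At CpGs covered on both strands, the strands did not give the same level in a library. Such CpGs were 27 of 46 at Slc25a31, 8 of 10 at Pdha2 and 19 of 23 at Rpl10l. At Pdha2, control library 3 read 3.62% on the plus strand and 40.7% on the minus strand, a gap of 37.1 points. Control library 2 and arsenic library 5 read 0% on the plus strand, against 7.65% and 20.7% on the minus strand. Single plus strand CpGs of Pdha2 had 20 to 40 reads in control library 2 and 18 to 38 in arsenic library 5, and since neighbouring CpGs share fragments, these zeros allow levels of up to 7.50% to 15% and 7.89% to 16.7%. The largest gap was 18.5 points at Slc25a31, in control library 4, and 16.9 points at Rpl10l, in control library 2. The plus strand was higher in 8 of 10 libraries at Slc25a31, in 3 of 10 at Pdha2 and in 5 of 10 at Rpl10l.

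**Figure D3:**
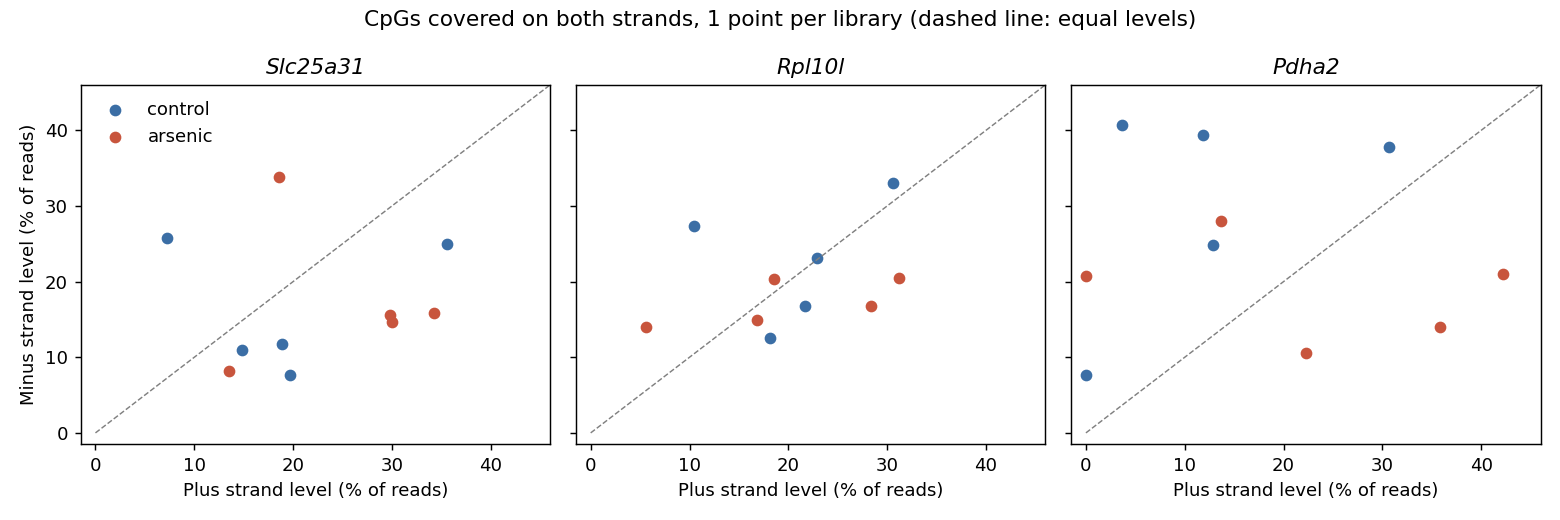
Level of the minus strand against that of the plus strand (% of reads) at the CpGs of Slc25a31, Rpl10l and Pdha2 covered on both strands, 1 point per library, control in blue and arsenic in red. The dashed line marks equal levels, and the points of Pdha2 lie farthest from it, up to 37.1 points in control library 3.

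Coverage on the plus strand of Pdha2 rose by a factor of 1.95 to 2.07 between adjacent CpGs 8 bases apart, in all 10 libraries. The methylated reads rose by a factor of 1.86 to 2.0 in 7 of the 8 libraries that had any, for example from 13 of 29 to 26 of 60 in arsenic library 4. In arsenic library 3 they went from 4 of 26 to 5 of 51, and control library 2 and arsenic library 5 had none at either CpG. The reads counted at the second of these CpGs therefore need not all be separate molecules, and the counting precision there may be lower than the coverage implies. The smaller limits given for the zeros, 7.5% and 7.89%, rest on the CpGs with most reads and may be too low for the same reason. The part of this step in the spread between libraries was not tested.

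At Slc25a31 and Pdha2 the start window of the somatic relative was less methylated than that of the testis gene in the same library. Slc25a5, the X-linked carrier, had a median of 1.09% over the 10 libraries, and the difference of Slc25a31 minus Slc25a5 was 7.89 to 24.4 points with a median of 15.8. Pdha1, the X-linked E1 alpha subunit, had a median of 2.33%, and Pdha2 exceeded it by 2.78 to 27.6 points with a median of 20.8. The 2.78 points belong to control library 2. The 10 CpGs of the Pdha2 window all lie inside the gene and none in its promoter entry, so its level is not that of the promoter. Utp14b exceeded X-linked Utp14a by a median of 1.05 points, with a range of -10.8 to 2.29 that includes libraries in which the parent gene was higher. The Utp14b window also holds the start of the overlapping gene Acsl3, so its level is not that of Utp14b alone. The start windows of Rpl10, Pgk1 and Cetn2 had fewer than 3 covered CpGs, so Rpl10l, Pgk2 and Cetn1 have no such comparison. These windows differ in CpG number and in their distance from the start, and the differences are given as a description without a test.

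**Figure D4:**
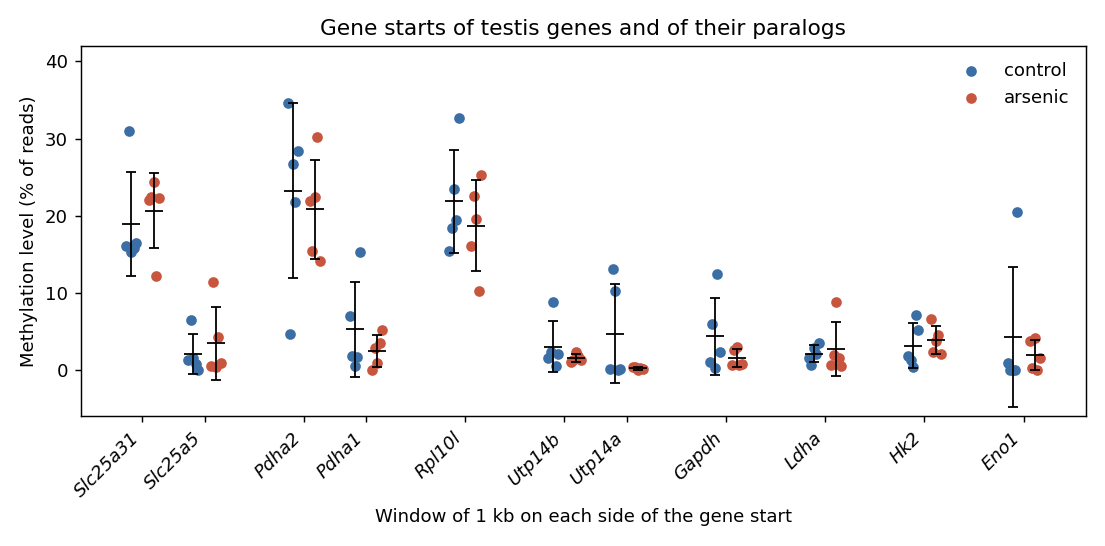
Methylation level (% of reads) in the 1 kb on each side of the gene start for the measured testis genes and relatives from other tissues, 1 point per library, control in blue and arsenic in red, with mean ± SD bars over 5 libraries. Slc25a31, Pdha2 and Rpl10l have medians of 19.3% to 22.2%, and the windows of the relatives and of Utp14b have medians under 4%. The Utp14b window also holds the start of Acsl3.

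Utp14b, on chr1:78657825-78667601 (plus strand), is a retrogene of a nucleolar protein of ribosomal RNA processing, and its loss stops the differentiation of spermatogonia. Its outer end at position 78657825 is also the start of Acsl3, an acyl-CoA synthetase gene on the same strand. The Utp14b start used here, for the sequence above and the start window, is at 78658440, inside Acsl3. The 54 covered CpGs of Utp14b lie in the CpG-rich stretch around these positions, and each had a mean level under 10%. Levels in control were 1.54%, 2.33%, 8.73%, 0.453% and 2.40%, and in arsenic 2.12%, 1.28%, 2.52%, 1.69% and 1.77%. Control library 3 was the 1 library above 3%. The means were 3.09% ± 3.25 (SD, n = 5) and 1.88% ± 0.467 (SD, n = 5), with an adjusted p of 0.915. Without control library 3 the difference was 0.195 points, and at CpGs with at least 20 reads in every library it was 0.197 points.

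Turning to glycolysis, Hk1 encodes the hexokinase that phosphorylates glucose, and germ cells use transcripts of it with their own first exons. The gene, on chr10:62268855-62379920 (minus strand), held 237 CpGs and 35 tiles. The control libraries stood at 88.2%, 87.3%, 87.9%, 88.3% and 88.4%, and the arsenic libraries at 86.8%, 87.0%, 91.0%, 89.9% and 90.0%. The control values ran only from 87.3% to 88.4%, and the arsenic values lay on both sides of them. The means were 88.0% ± 0.452 (SD, n = 5) and 88.9% ± 1.90 (SD, n = 5), with an adjusted p of 0.945.

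Along Hk1, 32 of 35 tiles had mean levels of 83.2% to 96.9%. The exceptions were an unmethylated tile and the last tiles of the gene. The unmethylated tile, chr10:62339001-62340000, has 12 CpGs located 706 to 965 bp after the internal start of the gene. In the direction of Hk1os, a long noncoding RNA gene on the opposite strand, the tile lies before a start at position 62340234. It stood at 0.671% ± 0.771 (SD, n = 5) in the control and 3.11% ± 4.59 (SD, n = 5) in the arsenic libraries. Arsenic library 3 reached 11.2% there, and the other 9 libraries ran from 0% to 2.58%. At the 3′ end, tile chr10:62269001-62270000 (27 CpGs) stood at 57.6% ± 5.61 (SD, n = 5) and 60.8% ± 9.71 (SD, n = 5). The adjacent tile (4 CpGs) stood at 59.7% ± 11.1 (SD, n = 5) and 68.6% ± 7.68 (SD, n = 5).

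**Figure D5:**
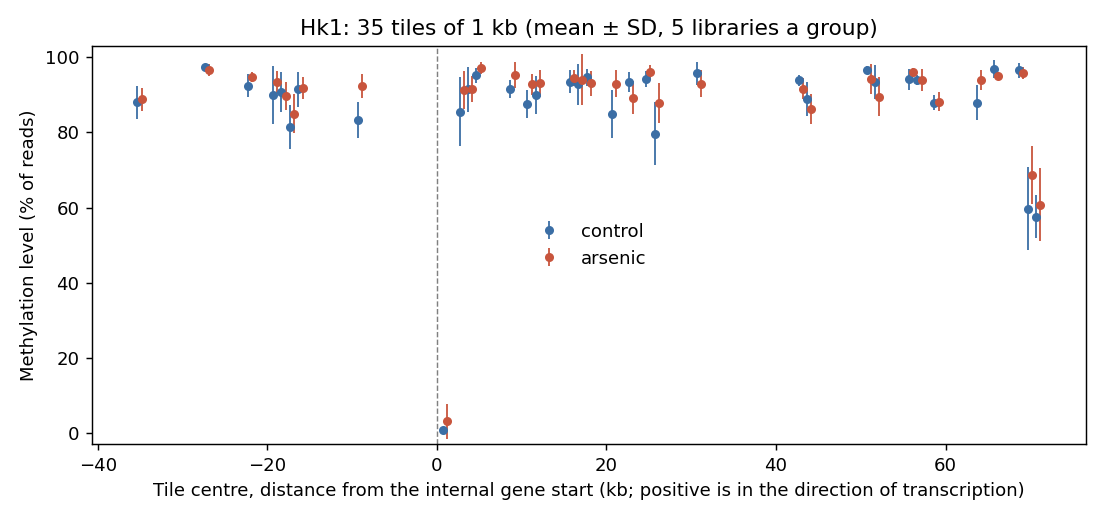
Mean methylation level ± SD (% of reads, 5 libraries a group) of 35 tiles of 1 kb along Hk1, against the distance of the tile centre from the internal gene start in kb, control in blue and arsenic in red. The tile just after the internal start is the only one near 0%, and it also lies before a start of Hk1os on the opposite strand. The tiles at the 3′ end on the right stand at 57.6% to 68.6%.

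Of the 4 Hk1 tiles with an unadjusted p under 0.05, the lowest p was that of chr10:62349001-62350000, where Hk1 overlaps the long noncoding RNA gene Hk1os on the opposite strand. Its 4 CpGs stood at 80.3%, 85.6%, 80.2%, 90.8% and 79.9% in control and at 91.5%, 94.0%, 92.8%, 95.9% and 87.4% in arsenic. Control library 4 lay above arsenic library 5, so the groups overlapped. The p was 0.00151 and the adjusted p 0.806, which does not pass. The other 3 were the tiles that begin at 62276001, at 87.9% in control and 93.9% in arsenic, at 62319001, at 84.9% and 93.0%, and at 62329001, at 87.6% and 92.8%. Of all 35 Hk1 tiles, 23 were higher and 12 lower in arsenic, beside 48.0% and 52.0% of all tiles. At 62276001 the lowest library was control 2, at 81.0%, and at 62319001 it was control 5, at 74.6%.

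Single CpGs of Hk1 gave the lowest p-values of the 462. CpG chr10:62349561 stood at 80.6% ± 8.53 (SD, n = 5) in control libraries and 94.4% ± 4.36 (SD, n = 5) in arsenic libraries, without overlap, with an adjusted p of 0.642. CpG 62349464, in the same tile, stood at 80.9% ± 4.97 (SD, n = 5) and 92.1% ± 5.03 (SD, n = 5) at the same adjusted p. CpG 62284559 stood at 85.6% ± 11.0 (SD, n = 5) and 99.3% ± 1.57 (SD, n = 5), with 4 of 5 arsenic libraries at 100%. In the other direction, CpG 62375328 stood at 98.2% ± 2.50 (SD, n = 5) and 89.9% ± 3.81 (SD, n = 5), again without overlap, and CpG 62297002 at 96.8% ± 3.06 (SD, n = 5) and 91.7%. None of these 5 CpGs passed, with adjusted p from 0.642 to 0.679.

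Gapdhs, on chr7:30729779-30744791 (minus strand), encodes the glyceraldehyde-3-phosphate dehydrogenase of the sperm tail, needed for sperm motility. None of its 32 covered CpGs lies near its start. All lie at its 3′ end, 13870 to 15828 bp after the start, where the gene Tmem147 begins at position 30729534 on the same strand. The tile there, with 28 CpGs, stood at 2.25% ± 2.01 (SD, n = 5) in control libraries and 1.14% ± 0.860 (SD, n = 5) in arsenic libraries, with an adjusted p of 0.937. The remaining 4 CpGs, inside Tmem147, had mean levels of 86.9% to 99.6%. The region value of 10.8% ± 3.80 (SD, n = 5) in control libraries and 8.98% ± 1.44 (SD, n = 5) in arsenic libraries mixes those sets and says nothing of the Gapdhs promoter. CpG 30729301, in Tmem147, was at 3.99% ± 2.64 (SD, n = 5) in control and was read as unmethylated in all 261 reads of the 5 arsenic libraries, which allows a level of up to 1.15%. Control library 2 was at 0% there too, and the adjusted p was 0.680.

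Ldhc encodes the lactate dehydrogenase of sperm, which regenerates NAD for glycolysis, and lies on chr7:46861263-46878147 (plus strand). Its 17 covered CpGs lie 4604 to 18591 bp after the start, within the gene and beyond its end. The control libraries stood at 88.6%, 93.3%, 92.2%, 93.1% and 93.5%, and the arsenic libraries at 89.7%, 91.2%, 93.0%, 89.6% and 90.5%. Control library 1 was the lowest of all 10. The means were 92.2% ± 2.04 (SD, n = 5) and 90.8% ± 1.36 (SD, n = 5), with an adjusted p of 0.962.

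A short stretch of Ldhc held its least methylated CpGs. CpG chr7:46869670 had a mean of 50.0% over the control and 47.2% over the arsenic libraries, the next CpG, 46869688, stood at 68.3% and 69.6%, while those that follow, 46869696 and 46869719, stood at 89.6% to 97.2%. Both strands gave that intermediate level: over all libraries 120 of 242 reads were methylated on the plus strand and 106 of 225 on the minus strand of 46869670. CpG 46869349, in the same tile, did not overlap between the groups. It was 95.8%, 92.9%, 93.9%, 91.7% and 93.3% in control and 63.2%, 82.1%, 88.0%, 61.3% and 88.9% in arsenic. Its p was 0.0145 and its adjusted p 0.689, and arsenic libraries 1 and 4 were well below the other arsenic libraries.

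Eno4, on chr19:58934058-58971421 (plus strand), encodes an enolase needed for the structure of the sperm tail and for motility. The Eno4 start used here, also for its promoter entry, is at 58943425, inside that interval. The neighbouring gene Hspa12a has a start at 58943672 on the opposite strand. Of the 43 covered CpGs of Eno4, 41 had a mean level of at least 80%. By library, controls stood at 90.0%, 90.0%, 88.5%, 86.5% and 90.6%, and the arsenic libraries at 91.6%, 88.8%, 88.0%, 91.0% and 86.4%, and the ranges nearly coincided. The means were 89.1% ± 1.68 (SD, n = 5) and 89.2% ± 2.14 (SD, n = 5), with an adjusted p of 0.996. The tile with the lowest p, chr19:58932001-58933000, lies inside the neighbouring gene Hspa12a and stood at 93.1% ± 4.74 (SD, n = 5) and 84.1% ± 8.18 (SD, n = 5), with an adjusted p of 0.873.

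The other 2 CpGs of Eno4 were read as unmethylated in the middle of methylated DNA. CpG chr19:58962461 had 0 methylated of 183 reads over the 10 libraries, which allows a level of up to 1.64%. The next covered CpG, 58962487, stood at 96.6% in control and 92.3% in arsenic. CpG 58968854 had 5 methylated of 314 reads, while the next one, 58968863, stood at 82.8% and 86.7%. Both CpGs were covered on the minus strand only. An unmethylated CpG and a CpG lost through a difference from the reference sequence give the same reads there and cannot be told apart.

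The wider pathways were compared at their gene starts, from lists of glycolytic, pyruvate dehydrogenase and related genes. Of 29 glycolysis genes, 17 were measured and 0 were called; 11 were higher and 6 lower in arsenic, beside 40.7% and 59.3% of all start windows, none with an unadjusted p under 0.05. In 13 of the 17 the level was under 10%. The lowest p-values were those of Pkm, the pyruvate kinase of most tissues, at 2.53% ± 1.11 (SD, n = 5) in control libraries and 1.39% ± 0.724 (SD, n = 5) in arsenic libraries, and of Pfkp, a phosphofructokinase, at 2.30% ± 0.772 (SD, n = 5) and 5.01% ± 4.05 (SD, n = 5). The relatives Ldha, Gapdh, Hk2 and Eno1 had medians over the 10 libraries of 1.79%, 1.71%, 3.07% and 0.622%. Of 12 genes of the pyruvate dehydrogenase complex and its kinases and phosphatases, 9 were measured and 0 called, against 0% of all start windows. Of the 9, 5 were lower and 4 higher in arsenic, beside 59.3% and 40.7% of all start windows. Pdk1, a kinase that inhibits the complex, stood at 2.31% ± 1.39 (SD, n = 5) and 4.78% ± 2.52 (SD, n = 5), and Pdp2, a phosphatase that restores it, at 2.91% ± 0.366 (SD, n = 5) and 4.67% ± 2.68 (SD, n = 5). In that list Pdha2 was the 1 measured gene above 10%.

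Of 8 housekeeping relatives, 5 were measured, 4 lower and 1 higher in arsenic, beside 59.3% and 40.7% of all start windows. None was called, against 0% of all start windows. Utp14a, the X-linked parent of Utp14b, stood at 4.74% ± 6.44 (SD, n = 5) in control libraries and 0.263% ± 0.199 (SD, n = 5) in arsenic libraries, with an unadjusted p of 0.0153 and an adjusted p of 0.701. Control library 2 was at 13.2% and control library 3 at 10.2%, whereas the remaining 3 controls lay between 0% and 0.156%, inside the arsenic range of 0% to 0.452%. Pdha1 stood at 5.26% ± 6.11 (SD, n = 5) and 2.48% ± 2.06 (SD, n = 5). Of 5 other testis retrogenes, 3 were measured and 0 were called, against 0% of all start windows. All 3 had a lower mean in arsenic, as had 59.3% of all start windows. Rpl39l, a ribosomal protein gene, stood at 15.5% ± 2.69 (SD, n = 5) and 9.68% ± 2.96 (SD, n = 5), with an unadjusted p of 0.0159 and an adjusted p of 0.701. Rbmxl2, an RNA-binding protein of the testis, stood at 8.0% ± 3.02 (SD, n = 5) and 7.12% ± 2.12 (SD, n = 5). Cstf2t, a polyadenylation factor needed for male fertility, stood at 40.4% ± 4.16 (SD, n = 5) and 40.0% ± 7.90 (SD, n = 5).

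The gene regions whose levels followed Pdha2 most closely over the 10 libraries, among 15748 regions with at least 10 CpGs, were Caskin2 (Pearson r = 0.945), Cdh26 (r = 0.915) and Uckl1 (r = 0.899). Control library 2 was the lowest library at Pdha2, Caskin2 and Cdh26, and the second lowest at Uckl1. These values share the libraries and were picked as the highest of many, so they are a description only.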

How the data were processed

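Testis DNA of 10 F2 mouse libraries was profiled by reduced representation bisulfite sequencing. Trim Galore 0.6.5, Bismark 0.22.3, methylKit 1.22.0 and the build mm10 are named, per the submitters' processing notes, with settings not given in the sources used here. The deposited table holds read counts per cytosine and library (all, methylated and unmethylated), not normalised, per the file headers. The lowest coverage was 10 reads, so a minimum of 10 removed nothing.

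Strands were summed per CpG. Gene positions and sequences came from RefSeq tables on GRCm38.p6, and 99.992% of covered CpGs inside promoter entries fell on a CG there. Start windows used the gene start at 10694 genes and the gene end with more CpGs at 2937. CpGs, tiles, gene regions and start windows were fitted over the whole table with a quasi-binomial logistic model, its dispersion squeezed with the method of limma 3.58.1 (ported to Python 3.11.15, numpy 2.4.6, scipy 1.17.1, pandas 2.3.3; checked in R 4.3.3) and kept at 1 or more, with an F test and Benjamini-Hochberg adjustment over all features of a kind. The fit was checked on simulated counts that kept the real coverage, with 100 features changed per size. The simulated spread between libraries had the same setting for every feature.

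Named were, for each gene, its region and start window, the tiles with most CpGs, at the start and with the lowest p, the 3 CpGs with the lowest p in each direction, 2 genes per pathway list, and the 3 regions most like the member with the largest SD. Further CpGs and tiles were named after their values were seen. The members and lists were chosen with earlier results of these data known. Alternatives were a replicate block, a coverage of at least 20, limma on log2 ratios with 0.5 added to each count, a binomial test on summed reads, other windows, and libraries left out. Exons and introns were not analysed here.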

Additional observations from a re-analysis of the deposited data

Results flagged for a closer look

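In 11 of 56 groups of values checked at named features, 1 library lay far from the other 4 by Dixon's ratio at the 95% level. Chance flags about 1 in 20 groups, and several of these values share CpGs. At Slc25a31, control library 2 stood at 30.9% and arsenic library 4 at 12.1%, in the gene region and in the start window, which hold the same CpGs. At Utp14b, control library 3 stood at 8.73% in the gene region, 8.82% in the start window and 8.73% in the tile chr1:78658001-78659000. In that tile the other controls were at 0.425% to 2.56%. The Ldhc region of control library 1 stood at 88.6%, below 92.2% to 93.5% in the other controls. The tile of 28 CpGs beside Gapdhs, which reaches into Tmem147, stood at 5.74% in control library 5, above 0.927% to 2.14% in the other controls. The Eno4 tile chr19:58936001-58937000, which also lies in Hspa12a, stood at 85.9% in arsenic library 5, below 91.6% to 93.5% in the other arsenic libraries. CpG chr10:62284559 of Hk1 stood at 96.5% in arsenic library 5 and at 100% in the other arsenic libraries.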

How the results depend on the processing

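The count of called member regions, tiles, CpGs and start windows was 0 under each alternative except the binomial test on summed reads. That test leaves out the spread between libraries, and called 16 of the 462 CpGs, beside 39969 of all 1407384 CpGs. The groups share replicate numbers, which the labels do not tie to a common source: deviations of same-numbered libraries correlated at -0.0126 to 0.0167 and those of other pairs at -0.0193 to 0.0168, and not every control correlated best with its own number (3 of 5). With the replicate block, 0 regions, 0 tiles, 0 CpGs and 0 start windows were called, and the lowest adjusted p of a member tile was 0.363. Small differences changed sign, and the cause was not tested. When 1 library was left out, the Pdha2 region, tile and start window turned to 0.462 points (without control 1), the Utp14b region to 0.195 (without control 3), the imprinted regions to 0.539 and 0.300 (without controls 3 and 4), the Hk1 tile at 62269001 to -0.0919 (without arsenic 4) and the Eno4 tile at 58936001 to 0.783 (without arsenic 5). Over all libraries left out, Pdha2 ran from -7.03 to 0.462, the Utp14b region from -1.87 to 0.195, the imprinted regions from -1.73 to 0.539, the Hk1 tile from -0.0919 to 6.08, the Eno4 tile from -1.28 to 0.783 and the Eno4 region from -0.634 to 0.713. Without control libraries 4 and 5, the Slc25a31 region and start window turned to -0.133, the Eno4 region to -0.357 and the Gapdhs tile to 0.0128. At a coverage of at least 20, the Utp14b region, tile and start window turned to 0.197, the Eno4 region to -0.438 and the Eno4 tile to 0.323. Without flanks the Slc25a31 region stood at -1.62. At 10 reads a level moves in steps of 10 points, which limits single CpGs most.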
